A study of Mus musculus with 24 samples.

Results

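The genes described here encode proteins of the mitochondrial ribosome. This family was chosen with earlier results of these data known. Its members were taken from the count tables by name alone, as the gene symbols made of Mrpl or Mrps followed by digits alone. This gave 74 of 48321 gene symbols, and each of the 74 had enough reads to be tested. By role, 49 belong to the large subunit and 24 to the small subunit. The large subunit genes include Mrps30, whose product was later placed in that subunit despite its name. The remaining gene, Mrps36, carries a small subunit name, but its product is a component of the 2-oxoglutarate dehydrogenase complex of the citric acid cycle.

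The RNA came from hippocampal GFP-positive cells, sorted from adult C57BL/6 mice in 6 pools of cells from several animals, 3 wild-type (WT) and 3 with a conditional knockout of the receptor Notch2 (Notch2 CKO). All animals carried Hes5::CreERT2, a tamoxifen-inducible Cre under control of a Notch target gene that is active in neural stem cells, and the reporter Rosa26R-CAG::GFP. They differed in Notch2, which was wt/wt in WT and flox/flox in CKO animals. Each group received tamoxifen for 5 days and was sampled after 1 day of chase, so the values describe an early time after recombination. The labels do not say whether animals were shared between pools, and p-values measure only the spread between these pools.

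Mitochondrial ribosomes translate the few proteins that mitochondrial DNA encodes, all of them subunits of the oxidative phosphorylation complexes. Their ribosomal RNAs are transcribed inside the mitochondrion, whereas every ribosomal protein is encoded in the nucleus, made in the cytosol and imported. About the core that is shared with bacterial ribosomes lie many proteins found only in mitochondria. In adult neurogenesis, mitochondrial metabolism is known to differ between quiescent stem cells, which resemble astrocytes, and their dividing and differentiating progeny.

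Each pool had 40366579 to 53984963 reads in genes, and a single read was worth 0.0175 to 0.0265 CPM. CPM, the usual read counts scaled to a common library size, were computed here with library sizes adjusted by the trimmed mean of M values (TMM), and the spread between pools was far larger than counting error (common biological coefficient of variation 0.725). Notch2 itself, the targeted gene, was at 99.3, 146 and 303 CPM in WT pools 1, 2 and 3 and at 65.3, 116 and 121 CPM in CKO pools 1, 2 and 3. Its pools overlapped between genotypes, and its log2 fold change of CKO over WT was -0.86 (SE 0.45, adjusted p = 0.790 by edgeR). Reads over the whole gene do not check a deletion of part of it, and the floxed exons are not given in the sources used here. Markers of stem cells and astrocytes were abundant, with a summed level of 24430 to 37690 CPM per pool and Hes5 at 233.5 to 495 CPM, while Nes, a progenitor marker, was at 0.185 to 6.37 CPM. Oligodendrocyte markers summed to 2355 to 6337 CPM, so the sorted cells were not of 1 type.

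The promoters of 6 members are shown because these members recur below: Mrpl44 and Mrpl22 are among the 5 with the smallest p on the lower side of the genotype comparison, Mrpl42 is among those of the library comparison, Mrpl9 and Mrps21 lie near Notch2, and Mrps12 encodes a protein of the decoding centre. Each run of 150 bases goes from 100 before to 50 after the RefSeq gene start, 5′ to 3′ on the gene's strand, in the build GRCm38.p6. Capitals mark the core motifs of NRF1 (GCGCANGCG), of ETS factors such as GABPA (CCGGAAG) and of YY1 (AAGATGGCG), on either strand. These factors are known regulators of nuclear genes for mitochondrial proteins.
Mrpl44, chr1:79775918-79776067, plus strand: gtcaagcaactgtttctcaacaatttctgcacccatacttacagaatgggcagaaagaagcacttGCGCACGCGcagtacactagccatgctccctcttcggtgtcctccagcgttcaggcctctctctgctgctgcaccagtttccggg
Mrpl22, chr11:58171564-58171713, plus strand: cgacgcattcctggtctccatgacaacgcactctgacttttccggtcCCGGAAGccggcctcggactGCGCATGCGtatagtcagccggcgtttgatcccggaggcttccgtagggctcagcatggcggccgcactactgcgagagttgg
Mrpl9, chr3:94443236-94443385, plus strand: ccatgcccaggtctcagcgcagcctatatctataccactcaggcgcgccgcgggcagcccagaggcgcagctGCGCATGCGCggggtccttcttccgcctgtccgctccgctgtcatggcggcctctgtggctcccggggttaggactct
Mrps21, chr3:95871465-95871614, minus strand: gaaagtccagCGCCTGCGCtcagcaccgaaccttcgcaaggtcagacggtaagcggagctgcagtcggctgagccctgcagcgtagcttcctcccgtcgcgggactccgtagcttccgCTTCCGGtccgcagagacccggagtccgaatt
Mrps12, chr7:28741772-28741921, minus strand: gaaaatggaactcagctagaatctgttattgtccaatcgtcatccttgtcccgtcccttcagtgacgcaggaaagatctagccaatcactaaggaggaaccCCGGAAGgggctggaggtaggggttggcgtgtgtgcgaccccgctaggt
Mrpl42, chr10:95501900-95502049, minus strand: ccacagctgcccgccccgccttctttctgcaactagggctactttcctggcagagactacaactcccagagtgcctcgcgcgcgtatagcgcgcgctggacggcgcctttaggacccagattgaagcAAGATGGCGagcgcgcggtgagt

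The marked matches differ in kind and place. Counted from the start, a match of the NRF1 core begins at -35 in Mrpl44 and at -33 in Mrpl22, with an ETS core at -53 in the latter. In Mrpl9 the NRF1 core is read on both strands at -28 and -27, since the marked stretch is a palindrome. Mrps21 holds an NRF1 core at -90 and an ETS core at 19, Mrps12 an ETS core at 2, and Mrpl42 a YY1 core at 28.

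Of the 74 members, 65 had a promoter in the RefSeq table, counted over the table's whole window of 250 bases before to 50 after the start. The NRF1 core was found in 15 of them (23.1%), against 13.6% of 12025 tested genes with a promoter and 6.25% of all 32851 promoters. The ETS core was found in 22 (33.8%), against 17.4% and 8.86%. The YY1 core was found in 7 (10.8%), against 3.08% and 1.40%. By contrast, the E-box CACGTG was present in 4 (6.15%), against 11.0% of tested genes and 7.15% of all promoters. The core of RBPJ (GTGGGAA), the DNA-binding partner of cleaved Notch, was present in 5 (7.69%), against 7.44% and 6.38%. Median GC content was 58.0% in the members' promoters, 60.3% in those of tested genes and 52.7% in all. These shares are descriptions of letters, both strands were searched, and overlapping matches of different motifs were each counted.

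The genes were spread over 17 chromosomes. A protein-coding gene on the opposite strand started within 1 kb of the start of 31 of the 74 (41.9%), against 10.9% of 21163 protein-coding genes in the tables. The members were also short, with a median merged exon length of 2394 bases against 3532 bases for protein-coding genes. Another annotated gene overlapped 38 of them, and reads in such overlaps, where strand is not known, may be assigned to either gene or set aside.

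The levels of the 74 genes spanned a wide range. Mean CPM over the 6 pools ran from 2.21 for Mrpl53 to 224 for Mrpl28. Per kilobase of merged exon, the scale on which genes can be compared, the median member was at 18.3 CPM. Mrpl28 was highest at 163 CPM per kilobase, followed by Mrpl27 at 98.5, Mrpl41 at 86.7, Mrpl55 at 80.0 and Mrps7 at 77.0. Mrpl27 and Mrpl28 are large subunit proteins with bacterial counterparts, Mrpl41 and Mrpl55 are specific to mitochondria, and Mrps7 belongs to the head of the small subunit. At the other end were Mrpl53 at 2.80, Mrps30 at 3.34, Mrps5 at 3.56, Mrps35 at 3.59 and Mrpl13 at 5.70 CPM per kilobase. The order depends on the length used: by the principal transcript, 2 of the 5 highest (Mrpl28 and Mrpl27) and 3 of the 5 lowest (Mrpl53, Mrps5 and Mrps30) stayed in place, and Mrpl42, Mrpl33 and Mrps33 entered the highest 5. Subunits of 1 particle did not have equal RNA levels on either scale.

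Most members were highest in the same pool. The 74 genes took 0.665%, 0.410% and 0.406% of reads in genes in WT pools 1, 2 and 3, and 0.349%, 0.377% and 0.368% in CKO pools 1, 2 and 3. Their summed level was 6933, 4080 and 4337 CPM in WT and 3306, 3534 and 3791 CPM in CKO pools, or 5117 ± 1578 against 3544 ± 242.5 (SD, n = 3 each). WT pool 1 stood far above the rest, and the other WT pools lay closer to the CKO pools, though above each of them. In WT pool 1, 70 members were above their own mean over the pools, against 38 in each of the other WT pools and 8, 18 and 23 in CKO pools 1, 2 and 3. The highest value of 57 members (77.0%) was in WT pool 1, which held the highest value of 25.0% of all tested genes.

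**Figure D1:**
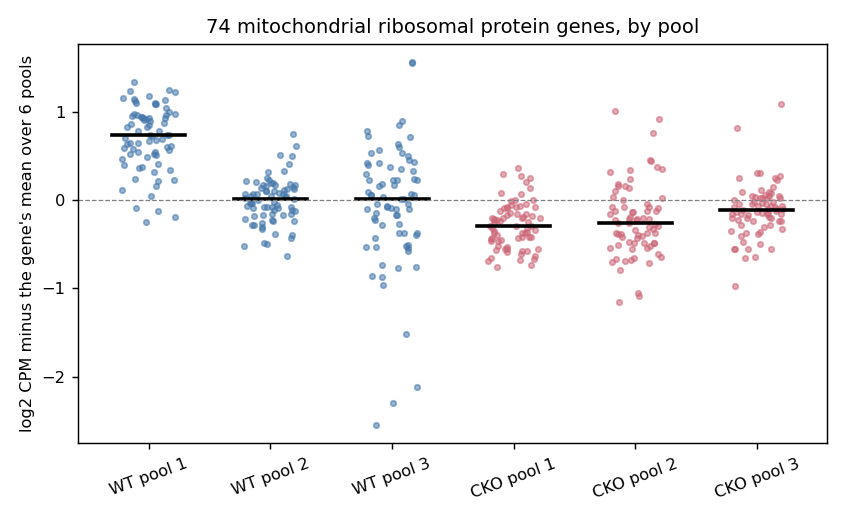
Each point is 1 of the 74 genes in 1 pool, plotted as its log2 CPM minus its mean over the 6 pools, and the bar is the pool's median. The median is 0.73 in WT pool 1, 0.01 in each of the other WT pools and -0.29, -0.26 and -0.11 in CKO pools 1, 2 and 3.

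The genotype comparison asks which genes differ when Notch2 is lost from Hes5-expressing cells. No member passed the edgeR test after Benjamini-Hochberg adjustment over all 21477 tested genes (0 of 74, smallest adjusted p = 0.790), and neither did any other gene (0% called in either direction). The members nonetheless lay mainly on 1 side. The log2 fold change of CKO over WT was below 0 for 67 of 74, against 52.8% of all tested genes, with a median of -0.55 against -0.06. At an unadjusted p under 0.05, 13 members (17.6%) were lower in CKO, against 2.90% of tested genes, and 0 were higher, against 3.01%. All 3 CKO pools lay below all 3 WT pools for 19 members (25.7%), against 8.17% of tested genes, and above them for 1, Mrpl1, against 7.67%. For each of these genes the exact two-sided permutation test gave p = 0.1, the smallest that 3 against 3 pools allow. DESeq2 called 1 member, Mrpl44 (adjusted p = 0.043), where it called 0.313% of genes lower and 0.720% higher. In the other alternatives the adjusted p of Mrpl44 was 0.469 to 0.993. With limma-voom 0 members were called, and 11 were lower at an unadjusted p under 0.05, against 2.61% of genes.

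These counts rest in part on single pools. Without WT pool 1, 55 of 74 log2 fold changes were below 0 and the median was -0.21, with 4 members lower at an unadjusted p under 0.05, against 2.26% of tested genes in that fit. Without CKO pools 1, 2 and 3 in turn this count was 2, 2 and 5, against 1.22%, 1.62% and 0.958% of genes. Without WT pools 2 and 3 it was 17 and 22, against 3.73% and 3.87% of genes. Of 12 stem cell and astrocyte markers, WT pool 1 was lowest in Hes5, Sox9, Slc1a3, Slc1a2, Aqp4 and Gja1. It was highest in Aldoc and Nes and neither in the rest. Slc1a3 was at 3838 CPM there and at 5668 CPM or more elsewhere, and Aldoc at 14470 and at 7179 to 12610 CPM. WT pool 1 also had the highest sum of 5 of the 10 marker lists of other cell types (excitatory neurons, interneurons, endothelial cells, pericytes and red blood cells). In each of these lists some genes were nonetheless highest in another pool. Excitatory neuron markers, 9 genes, summed to 966 CPM in WT pool 1, to 330 and 412 CPM in the other WT pools and to 298.5 to 423 CPM in the CKO pools. Slc17a7 was highest in CKO pool 3 and Neurod6 in WT pool 3, the others in WT pool 1. Red blood cell markers, 5 genes, summed to 392 CPM in WT pool 1 and to 14.3 to 117.5 CPM elsewhere, and all but Alas2 were highest in WT pool 1. Endothelial markers, the 5 tested of 6 genes, summed to 72.3 CPM in WT pool 1, of which Cldn5 gave 59.6 CPM, and to 3.91 to 29.2 CPM elsewhere. Pecam1 and Tek were also highest in WT pool 1, but Flt1 was highest in WT pool 2 and Kdr in WT pool 3. Interneuron markers, the 5 tested of 7 genes, summed to 95.6 CPM in WT pool 1 and to 25.4 to 64.6 CPM elsewhere. Of these, Npy (51.7 CPM in WT pool 1) and Sst (13.6 CPM) were highest in WT pool 1. Gad1, Gad2 and Pvalb were highest in CKO pools, with Gad1 at 28.4 CPM in WT pool 1 and 56.7 CPM in CKO pool 1. Pericyte markers, 6 genes, summed to 102 CPM in WT pool 1 and to 35.8 to 95.0 CPM elsewhere. Acta2, Kcnj8 and Vtn were highest in WT pool 1, but Pdgfrb and Rgs5 were highest in CKO pool 3 and Abcc9 in WT pool 2. Among defining markers, Cdh5 of endothelial cells, not tested and not in their sum, had 0 reads in WT pool 3 and CKO pools 1 and 3. Of the pericyte genes Kcnj8 had 0 in WT pool 3 and Abcc9 in WT pool 1. The part of these cells in the difference was not tested, and in bulk samples fewer cells of a type and less RNA per cell cannot be told apart. In the labels, WT pools 1, 2 and 3 are also marked 20K, 12K and 2K and CKO pools 19K, 4K and 9K, marks whose meaning is not given in the sources used here.

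**Figure D2:**
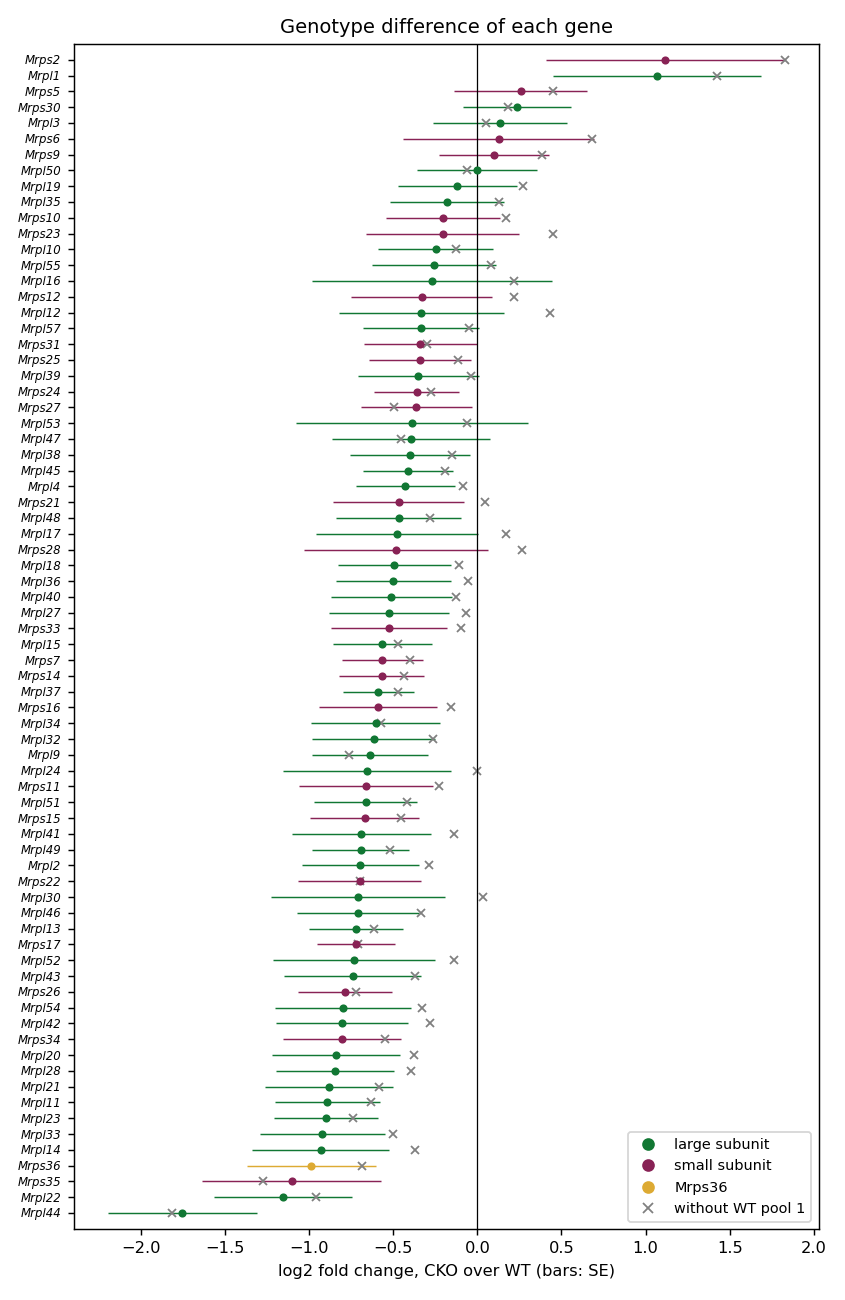
Log2 log2 fold change of CKO over WT for each of the 74 genes, with the SE of the edgeR fit as bars, coloured by subunit, and as crosses the value without WT pool 1. Values run from -1.76 for Mrpl44 to 1.12 for Mrps2, and 67 of 74 points lie below 0.

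Among large subunit genes, 46 of 49 log2 fold changes were below 0, the median was -0.59, and the pools did not overlap in the lower direction for 12, against 8.17% of all tested genes. Of the 49, 39 were below 0 without WT pool 1, and the median was then -0.19. Mrpl44, a protein specific to mitochondria with a fold related to ribonuclease III, had the smallest p of all members. It was at 41.7, 27.2 and 71.5 CPM in the WT pools and at 17.8, 11.4 and 12.4 CPM in the CKO pools. Every CKO pool was below every WT pool, and WT pool 3, not WT pool 1, was highest. The log2 fold change was -1.76 (SE 0.44, unadjusted p = 0.00526 and adjusted p = 0.790 by edgeR), and it was -1.82 without WT pool 1. By library, described below, it was -2.62 in the first libraries and -0.87 in the second.

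Mrpl22 and Mrpl23 encode proteins that border the exit of the peptide tunnel. Mrpl22 was at 38.2, 21.6 and 33.1 CPM in the WT pools and at 13.5, 9.71 and 18.5 CPM in the CKO pools, and its log2 fold change was -1.15 (SE 0.41, adjusted p = 0.790 by edgeR). No CKO pool reached the lowest WT pool, but WT pool 2 came close to CKO pool 3. Mrpl23 was at 56.7, 35.9 and 49.3 against 24.7, 29.5 and 21.9 CPM, a log2 fold change of -0.90 (SE 0.31). Its counts are uncertain, since the pseudogene Mrpl23-ps1 took 204.7% as many reads as Mrpl23 itself, and reads of such copies may have been placed on either. Summed with the pseudogene, the level was 143.8 ± 36.6 CPM in WT and 76.4 ± 10.7 CPM in CKO (SD, n = 3 each). Mrpl48 shares this doubt, with a pseudogene at 72.6% of its reads.

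Mrpl11, a protein of the stalk base where translation factors bind, was at 104, 57.4 and 75.9 CPM in the WT pools and at 35.4, 39.6 and 53.0 CPM in the CKO pools. The genotypes did not overlap, and the log2 fold change was -0.89 (SE 0.31). Mrpl12, the stalk protein, which has also been described as a partner of the mitochondrial RNA polymerase, was at 110, 37.6 and 34.1 against 43.3, 58.6 and 42.3 CPM. Here WT pool 1 alone carried the direction: the log2 fold change was -0.33 (SE 0.49) with that pool and 0.43 without it. Mrpl28, the most abundant member, was at 439, 242 and 184 against 138, 148 and 195 CPM, with overlap between WT pool 3 and CKO pool 3. Its log2 fold change of -0.84 (SE 0.35) was -0.40 without WT pool 1.

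The 3 large subunit genes with a log2 fold change above 0 were Mrpl1, Mrpl3 and Mrps30. Mrpl1, whose bacterial counterpart forms the mobile stalk at the tRNA exit, was at 24.1, 22.4 and 4.40 CPM in the WT pools and at 27.9, 40.7 and 38.1 CPM in the CKO pools. It was the sole member whose CKO pools all lay above the WT pools, its log2 fold change was 1.07 (SE 0.62, adjusted p = 0.794 by edgeR), and WT pool 3 lay far below the other WT pools. Without WT pool 3 the value was 0.61. Mrpl3, a protein of the peptidyl transferase region, was at 39.5, 38.6 and 57.9 against 41.7, 76.8 and 30.8 CPM, which overlap widely (log2 fold change 0.13, SE 0.40). Mrps30 varied least of all members, with 18.6, 19.8 and 23.0 against 23.4, 22.2 and 26.7 CPM and an SD of log2 CPM over the pools of 0.19.

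Small subunit genes had 20 of 24 log2 fold changes below 0, a median of -0.48 and 6 members whose pools did not overlap in the lower direction, against 8.17% of all tested genes. Of the 24, 15 were below 0 without WT pool 1, and the median was then -0.19. The 15 with a bacterial counterpart had a median of -0.47, which was 0.05 without WT pool 1. The 9 specific to mitochondria had medians of -0.53 and -0.49 with and without it. The difference between the classes was not tested.

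Mrps17, a protein of the body of the small subunit, was at 121, 98.6 and 146 CPM in the WT pools and at 75.8, 72.0 and 74.0 CPM in the CKO pools. The CKO pools were close together and all below the WT pools, and the log2 fold change was -0.72 (SE 0.23, adjusted p = 0.790 by edgeR) with and -0.71 without WT pool 1. It was -1.09 in library 1 and -0.29 in library 2. Mrps34 was at 42.1, 26.9 and 27.0 against 15.3, 20.3 and 19.3 CPM (log2 fold change -0.81, SE 0.35), and Mrps16 at 87.9, 41.0 and 46.4 against 35.7, 40.4 and 40.4 CPM (-0.59, SE 0.35). Neither overlapped between genotypes, but for Mrps16 the WT pool 2 and the CKO pools 2 and 3 were almost level, and its log2 fold change was -0.16 without WT pool 1. Mrps22, a protein specific to mitochondria, was at 40.5, 29.0 and 53.7 against 18.8, 24.7 and 32.4 CPM, and its groups overlapped (-0.70, SE 0.37, and -0.46 without WT pool 3).

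Mrps7 was at 228.5, 148 and 195 CPM in the WT pools and at 149.5, 120 and 117 CPM in the CKO pools. WT pool 2 lay just below CKO pool 1, and the log2 fold change was -0.56 (SE 0.24). Mrps12, of the decoding centre, was at 144, 78.5 and 44.4 against 67.8, 68.5 and 76.1 CPM. Its CKO pools lay within the WT range, and the log2 fold change was -0.33 (SE 0.42) with and 0.22 without WT pool 1.

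Mrps2, at the head of the small subunit on the side of the mRNA exit, had the largest spread of all members, with an SD of log2 CPM of 1.35 over the pools. It was at 32.0, 18.6 and 3.82 CPM in the WT pools and at 25.7, 45.0 and 47.5 CPM in the CKO pools, a log2 fold change of 1.12 (SE 0.71). The value was 0.63 without WT pool 3 and 1.83 without WT pool 1. WT pool 3 was lowest here, as for 17 of 74 members (23.0%; 29.6% of all tested genes). Mrps5, near the mRNA entry, was at 26.2, 25.3 and 12.4 against 24.8, 28.6 and 22.9 CPM, again low in WT pool 3. Mrpl16, of the large subunit, with an SD of log2 CPM of 1.12, was at 46.2, 37.8 and 5.19 against 26.7, 19.4 and 27.9 CPM. Mrpl9 and Mrps21, both on chromosome 3 within 10 Mb of Notch2, were at -0.64 (SE 0.35) and -0.47 (SE 0.39) on the log2 fold change scale, and of these Mrpl9 did not overlap between genotypes. Mrpl9 was at -0.28 without WT pool 3 and Mrps21 at 0.05 without WT pool 1.

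**Figure D3:**
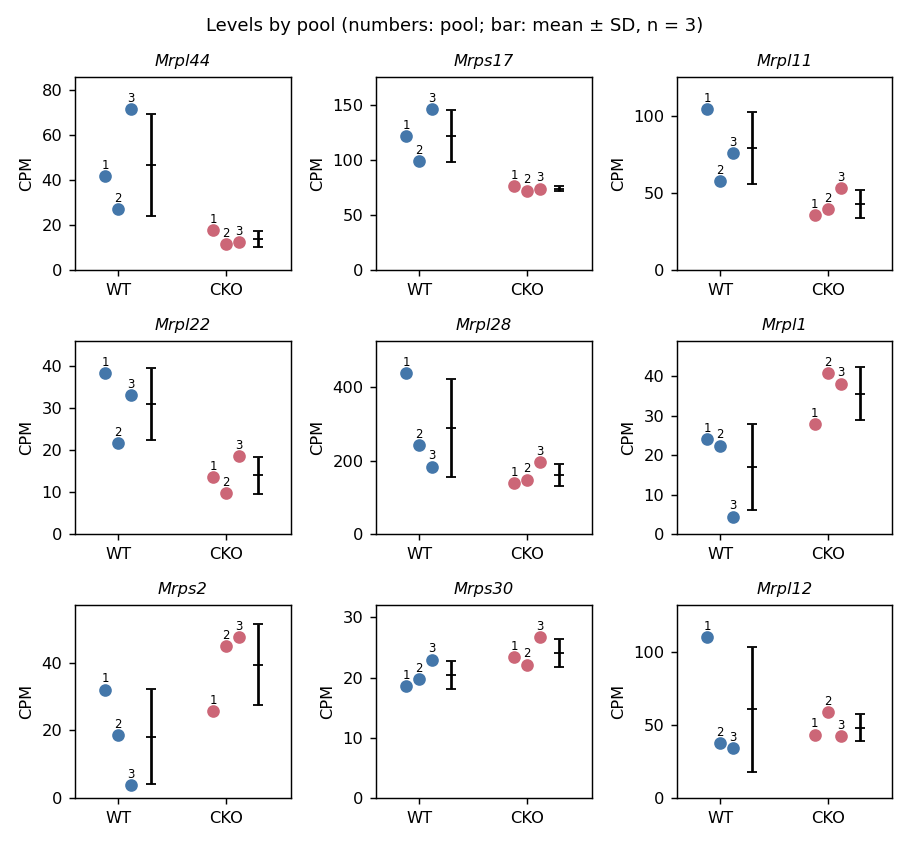
CPM of 9 members in each pool, WT in blue and CKO in red with pool numbers, and the mean and SD of each genotype (n = 3). Mrpl44, Mrps17, Mrpl11 and Mrpl22 show CKO pools below all WT pools, Mrpl1 shows them above, and in Mrpl28 and Mrpl12 WT pool 1 lies apart.

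Mrps36, the citric acid cycle component, was at 40.1, 19.4 and 29.0 CPM in the WT pools and at 15.6, 15.1 and 13.9 CPM in the CKO pools. The genotypes did not overlap, and the log2 fold change was -0.99 (SE 0.38), with -1.35 in library 1 and -0.49 in library 2. The pseudogenes Mrps36-ps1 and Mrps36-ps2 took 68.9% and 42.2% as many reads as the gene. Summed with its pseudogenes the level was 61.0 ± 21.2 CPM in WT and 32.6 ± 0.687 CPM in CKO (SD, n = 3 each).

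Neighbours that share a start region lay on both sides of 0. Of 27 tested neighbours outside the gene family that start head to head with a member, 11 had a log2 fold change below 0, with a median of 0.07. The following pairs were chosen after their values were seen, and in each the genes overlap on opposite strands. Since strand is not known, reads in these overlaps may be assigned to either gene or set aside. Wdfy1, which starts within 1 kb of Mrpl44, was at 22.6, 62.5 and 11.5 CPM in the WT pools and at 72.4, 90.3 and 81.1 CPM in the CKO pools. Its log2 fold change of 1.34 (edgeR adjusted p = 0.790) was opposite in sign to that of Mrpl44. In the pair Mrpl46 and Mrps11, where both partners are members, the log2 fold changes were -0.71 and -0.66. Ndufs6, a complex I subunit that starts beside Mrpl36, had -0.85 against -0.50 for Mrpl36.

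Each pool has a rep1 and a rep2 in its titles, taken here as libraries 1 and 2, and the members differed between them. The titles do not say at which step rep1 and rep2 were split. Lanes of 1 library agreed within sampling noise (chi-square over its degrees of freedom 0.986 to 1.01, 12 libraries), whereas the libraries of 1 pool did not (70.7 to 351). The summed level of the 74 genes was lower in library 2 than in library 1 in every pool. In WT pools 1, 2 and 3 it was 9606, 5144 and 5582 CPM in library 1 and 4268, 2808 and 3912 CPM in library 2. In CKO pools 1, 2 and 3 it was 3592, 4234 and 4682 CPM in library 1 and 2927, 3022 and 2968 CPM in library 2. The ratio of library 2 to library 1 ran from 0.444 in WT pool 1 to 0.815 in CKO pool 1.

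**Figure D4:**
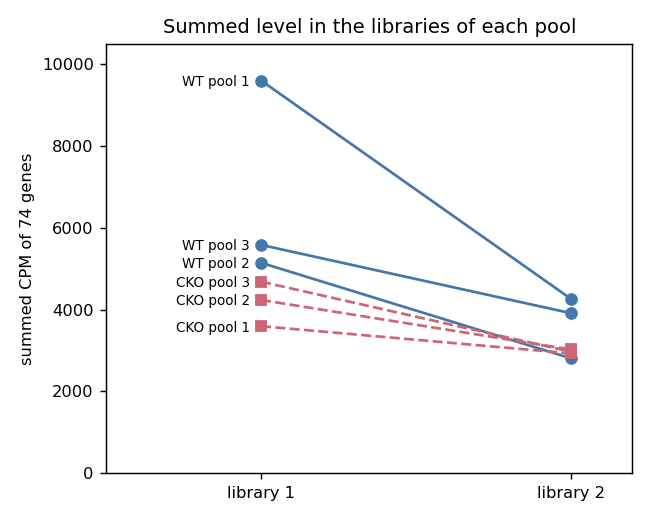
Summed CPM of the 74 genes in library 1 and library 2 of each pool, WT as circles with solid lines and CKO as squares with dashed lines. All 6 lines go down from library 1 to library 2, and the genotypes are separate in library 1 (5144 CPM or more in WT, 4682 CPM or less in CKO) but overlap in library 2.

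With pool as a block, edgeR called no gene between the libraries (0% of 18267 genes in either direction, smallest adjusted p of a member 0.173). The log2 fold change of library 2 over library 1 was below 0 for 66 of 74 members, against 45.5% of tested genes, with a median of -0.57 against 0.10. At an unadjusted p under 0.05, 28 members (37.8%) were lower in library 2, against 6.78% of tested genes, and 0 were higher, against 7.60%. At the same cut, 60 of 83 nuclear subunits of oxidative phosphorylation were lower (median -0.70), as were 27 of 84 cytosolic ribosomal proteins (-0.59). Of 9 further mitoribosome subunits 7 were lower (-0.92), but of 17 mitochondrial translation factors 0 and of 26 mitoribosome assembly factors 2. Library 2 was below library 1 in all 6 pools for 24 members (32.4%), against 9.10% of genes. DESeq2 called 20 members lower (27.0%, against 4.57% of genes) and 0 higher (against 5.26%). Scaling by library totals moved the median of all genes from 0.10 to 0.23 and that of the members from -0.57 to -0.43, a distance between them of -0.67 and -0.66.

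Mrpl11 had the largest library difference among the members with the smallest p. It was at 147.5, 77.4 and 128 CPM in library 1 of the WT pools and at 61.7, 33.7 and 45.4 CPM in library 2. The CKO pools showed the same order, with 45.7, 58.2 and 74.2 CPM against 24.7, 24.7 and 34.2 CPM, and the log2 fold change was -1.20 (SE 0.19, adjusted p = 0.173 by edgeR and 3.29e-09 by DESeq2, 0.163 to 0.521 in the other alternatives). Mrps14, of the small subunit head, was lower in library 2 in all 6 pools with -1.09 (SE 0.17), as were Mrpl42 with -1.07 (SE 0.19), Mrpl27 with -1.11 (SE 0.22) and Mrpl33 with -1.15 (SE 0.26). On the other side, Mrps2 had 0.82 (SE 0.58), Mrpl1 0.49 (SE 0.56) and Mrpl50 0.21 (SE 0.24), the last higher in library 2 in 5 of 6 pools.

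The genotype difference was larger in library 1 than in library 2. The summed level was 6777 ± 2460 CPM in WT and 4170 ± 548 CPM in CKO in library 1 (SD, n = 3 each), a ratio of 0.615. In library 2 it was 3663 ± 762 and 2972 ± 47.4 CPM, a ratio of 0.812. The median log2 fold change of the members was -0.66 in library 1 and -0.35 in library 2. For nuclear subunits of oxidative phosphorylation these medians were -0.82 and -0.35, and for cytosolic ribosomal proteins -0.80 and -0.36. For mitoribosome assembly factors they were 0.12 and -0.22. A test of the difference between libraries, chosen after the data were seen, called no gene (edgeR, smallest adjusted p = 0.984), and 6 members had an unadjusted p under 0.05 (8.11%, against 1.78% of genes in that direction). These were Mrpl2, Mrpl13, Mrpl30, Mrpl33, Mrpl44 and Mrpl51, all with a more negative value in library 1.

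Gene length also went with both comparisons. Across 20667 tested genes Spearman's rho between merged exon length and the genotype log2 fold change was 0.24, and across 17630 genes it was 0.37 for the library log2 fold change, so that shorter genes had lower values in CKO pools and in library 2. Among the 74 members rho was 0.17 and 0.20. Genes in these figures share pools and libraries and are not independent, and the part of length in the members' values was not tested.

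Other genes of the same machinery gave a divided picture. Of 9 further mitoribosome subunits whose symbols fall outside the naming rule, 8 had a genotype log2 fold change below 0, with a median of -0.70 and 0 called by edgeR. The median was -0.25 without WT pool 1. Dap3, the GTP-binding subunit, was at 120, 82.2 and 84.8 CPM in the WT pools and at 54.5, 51.2 and 53.7 CPM in the CKO pools, without overlap (log2 fold change -0.85, SE 0.25, adjusted p = 0.790). Mrps18b had -1.10 (SE 0.44), and Ptcd3, the 1 subunit above 0, had 0.58 (SE 0.33). The mitochondrial ribosomal RNAs, the other component of the particle, were at -0.48 (SE 0.29) for mt-Rnr1 and -0.20 (SE 0.18) for mt-Rnr2, and both overlapped between genotypes. Without WT pool 1 these values were -0.12 and -0.05.

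Factors that assemble or use the ribosome had medians from -0.21 to 0.07, and edgeR called none of them. Of 26 assembly and rRNA modification factors, 13 were below 0 (median 0.03). Malsu1, a factor bound to the large subunit before the subunits join, was at 42.7, 40.1 and 48.1 against 21.5, 26.2 and 21.8 CPM, and Rpusd4, a pseudouridine synthase for mitochondrial RNA, at 17.4, 16.2 and 41.5 against 8.19, 7.72 and 9.88 CPM. Neither overlapped between genotypes, and their log2 fold changes were -0.91 (SE 0.28) and -1.54 (SE 0.49). Of 17 translation factors 10 were below 0 (median -0.21), among them the elongation factor Tsfm with -0.89 (SE 0.37), while Gfm2, which acts in ribosome recycling, had 0.68 (SE 0.32). Of 22 mitochondrial aminoacyl-tRNA synthetases 10 were below 0 (median 0.07), and of 12 genes for replication and transcription of mitochondrial DNA 8 were (median -0.21). Without WT pool 1 the median of translation factors turned to 0.19, about as far above that of all genes (-0.01) as the members' -0.21 was below it. The synthetases turned to -0.10, and the assembly factors and the replication and transcription genes had medians of 0.08 and -0.27.

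Among 26 genes of mitochondrial protein import, 18 were below 0 (median -0.39, but 0.002 without WT pool 1). The receptor Tomm22 had -0.72 (SE 0.28) and the chaperone Timm13 -0.91 (SE 0.35; -0.43 without WT pool 1), both without overlap. Of 11 nuclear factors of mitochondrial biogenesis 4 were below 0 (median 0.30). Gabpb1, a subunit of the ETS factor whose core is marked above, was at 6.65, 15.4 and 0.609 against 26.8, 20.4 and 18.7 CPM (1.54, SE 0.96). Nrf1, given here because its motif is shown, was at 29.4, 36.8 and 89.2 against 59.6, 51.3 and 27.8 CPM (-0.16, SE 0.50).

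The oxidative phosphorylation complexes combine products of mitochondrial translation with nuclear subunits, and WT pool 1 bore on the distance between them. Of 13 proteins encoded in mitochondrial DNA, 5 were below 0, with a median of 0.05. Of these, 10 were below 0 without WT pool 1, and the median turned to -0.09. Of 83 nuclear subunits of oxidative phosphorylation, 79 were below 0, with a median of -0.63, and 14 had an unadjusted p under 0.05 in the lower direction, as did 2.90% of all tested genes. Cytosolic ribosomal proteins, which serve translation outside the mitochondrion, had 83 of 85 below 0 and a median of -0.59. Without WT pool 1 the medians of the nuclear subunits and the cytosolic ribosomal proteins were -0.19 and -0.17, against -0.21 for the 74 members. The members' median shift was close in size to those of both other sets. All CKO pools lay below all WT pools for 40 of the 83 nuclear subunits and 19 of the 85 cytosolic ribosomal proteins. This held for 19 of the 74 members and 8.17% of all tested genes. Without WT pool 1, 75 nuclear subunits, 57 cytosolic ribosomal proteins and 55 members were below 0. No test of a difference between the lists was made.

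**Figure D5:**
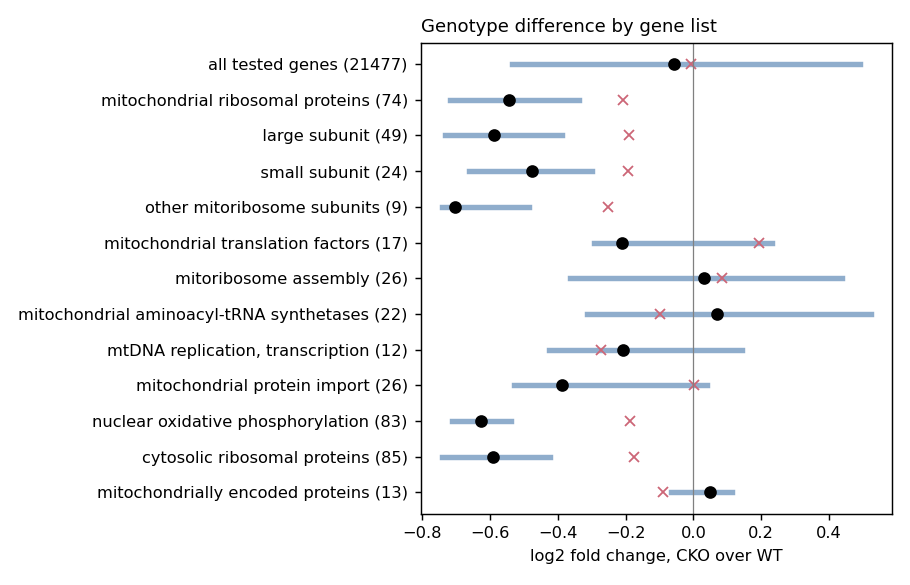
Median log2 fold change of CKO over WT (dot), the range from the lower to the upper quartile (bar) and the median without WT pool 1 (cross) for each gene list, with the number of tested genes. The 74 members at -0.55 lie near nuclear oxidative phosphorylation at -0.63 and cytosolic ribosomal proteins at -0.59, while assembly factors at 0.03 and mitochondrially encoded proteins at 0.05 lie near all genes at -0.06, and without WT pool 1 the members' cross is at -0.21 and that of mitochondrially encoded proteins at -0.09.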

How the data were processed

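GFP-positive hippocampal cells were profiled in 24 sequencing runs, which the labels place in 6 pools, 3 pools per genotype. The rep1 and rep2 of each pool's titles were taken as 2 libraries, with 2 lanes each. The RNA was amplified with Smart-Seq2 and made into Nextera XT libraries, which do not mark strand, per the labels' protocols. The deposited tables hold raw read counts per gene symbol, made by the authors with Bowtie2, HTSeq and the build GRCm38, per the submitters' processing notes. Versions, annotation and counting settings are not given in the sources used here. The 5 summary lines that name no gene were left out of library sizes, and reads outside genes were 16.0% to 35.3% of all reads per pool. The lines for reads with several alignments or low quality held 0 reads, so reads of near-identical copies may lie on either.

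The 4 tables of a pool were summed, and the pool was the replicate. The genotype comparison used edgeR 4.0.16 under R 4.3.3 (filterByExpr, TMM, robust quasi-likelihood F test, Benjamini-Hochberg adjustment over all tested genes at 0.05), and libraries 2 and 1 with the same test, pool as block. Fold changes are log2 values with the SE of the fit. DESeq2 1.42.0 and limma 3.58.1 voom were alternatives, as were other scalings, no filter on low counts, each library alone, a replicate block and leaving out each pool. The steps were tested on simulated data, with 100 genes changed 2-fold and 100 changed 4-fold. The genotype test called 0 of the 2-fold and 11 of the 4-fold changes, with 2 false calls. The library test called 0 and 5 of them, with 0 false calls. The absence of a call by edgeR therefore does not show that a gene is unchanged. The test of genotype by library and the principal transcript length were added after seeing the data. Lists were described by counts and medians, with no set test. Positions and exon lengths are from GENCODE M21 on GRCm38, which matched 96.2% of tested symbols. Promoters are from RefSeq, matched by symbol for 65 of 74 members.

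The members and lists were chosen with earlier results of these data known. Members to be named were the 5 with the smallest p in each direction of either comparison and the 5 highest and lowest per kilobase. Added to these were the 3 most and least variable, those within 10 Mb of Notch2, 11 fixed genes, and of each other list the 2 genes with the smallest p. Not all were described: Mrps24 and Mrps31, among the least variable, were left out. So were Mycn, Yars2, Nars2, Mgme1, Tefm, mt-Co3, mt-Nd4, Rpl13, Rpl7a, Ndufv3 and Atp5j2 of the other lists. Pools had 40366579 to 53984963 reads in genes. Without molecular identifiers, this depth bounds the counting error alone.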

Additional observations from a re-analysis of the deposited data

How the results depend on the processing

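No member was called between genotypes by edgeR under any scaling, filter, block, single library or left-out pool, and DESeq2 called 1. The 13 members lower at an unadjusted p under 0.05 became 7 with library totals, 2 with library 2 only and 4 with the replicate block, against 1.81%, 1.57% and 1.26% of all genes, and 2 to 22 when 1 pool was left out. Leaving out 1 pool gave medians of -0.64 to -0.21. The same-numbered pools did not deviate together (r = 0.056, 0.022 and -0.028), so the block rests on numbers alone. Over all genes, 647 were higher and 622 lower at an unadjusted p under 0.05, and 809 and 388 with library totals.

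Some named genes changed sign. In the genotype comparison, library 1 only gave -0.090 for Mrps30, -0.105 for Mrps5, -0.021 for Mrpl3 and 0.283 for Mrpl50, and library 2 only gave 0.073 for Mrpl13 and 0.312 for Mrpl16. Mrpl50 was 0.109 with library totals, 0.197 with limma-voom, 0.012 with no low-count filter, 0.048 with upper-quartile scaling and 0.023 with the replicate block, where Mrpl16 was 0.116. Leaving out 1 pool gave -0.022 to 0.465 for Mrps5, -0.322 to 0.413 for Mrpl3, -0.484 to 0.083 for Mrpl55, -0.771 to 0.218 for Mrpl16, -0.257 to 0.328 for Mrpl50, -0.661 to 0.046 for Mrps21, -0.630 to 0.434 for Mrpl12 and -0.660 to 0.220 for Mrps12.

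Between libraries, DESeq2 called 20 members where edgeR called 0. Mrps30 was 0.116 with library totals and 0.028 with no replicate block, where Mrpl16 was -0.301. Leaving out 1 pool gave -0.190 to 0.235 for Mrps30, -0.166 to 0.511 for Mrpl16 and -0.020 to 0.469 for Mrps26. The median level was 31.0 CPM per kilobase of principal transcript, against 18.3 by merged exons, since these transcripts are shorter. The cause of the other changes was not tested.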
